A study of Mus musculus with 2 samples.

Results

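The 78 protein-coding genes of the mouse mitochondrial ribosome whose symbols start with Mrpl or Mrps and a number were followed on a pair of kidney arrays, out of 20017 genes that the array names. The members were chosen by symbol, through the RefSeq accession of each probe. They comprise 49 Mrpl genes, named for the large subunit, and 29 Mrps genes, named for the small subunit. Another 6 Mrp symbols in the gene table are pseudogenes, and no probe of the array matched them. The members had 99 probes. In 77 of the 78 genes at least 1 probe lay well above background on both arrays, and these 77 are called measured.

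Mitochondria carry their own ribosome, which makes only the few membrane proteins of the respiratory chain and of ATP synthase that mitochondrial DNA encodes. Its ribosomal RNA comes from mitochondrial DNA, but all its proteins are encoded in the nucleus, made in the cytosol and imported. Some of these proteins have counterparts in bacterial ribosomes, and others are found only in mitochondria. Tubule cells of the kidney are rich in mitochondria, because reabsorption of salt and solutes consumes much ATP.

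Both groups were male mice with a C57BL/6J background that had been given streptozotocin (STZ), which destroys beta cells of the pancreas and so causes diabetes, when 8 weeks old; the drug was dissolved in citrate buffer of 100 mmol/l. Kidneys were taken at 32 weeks, and RNA was prepared from the dissected glomerular regions. One group, WT+STZ, was wild type, and the other, TG+STZ, carried a transgene that overexpresses Sirt1, a deacetylase that depends on NAD. The study concerns Sirt1 of the renal tubule and albumin loss, and the promoter of the transgene and the number of mice behind each array are not given in the sources used here.

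Each group had 1 array, so no test between groups was possible, and no difference below has a replicate check. Signals are intensity units as deposited. A scaled value is log2 of the signal minus the 75th percentile of the gene spots of the same array, which stood at 1933 units for WT+STZ and 2042 for TG+STZ. A difference is TG+STZ minus WT+STZ on this log2 scale, so a gene with equal signals on both arrays has a difference slightly below 0. The ± is derived from the error that the scanner software assigns to each signal. That error was combined over both arrays and over the probes of a gene as if they were independent, and repeat spots did not lower it. The ± covers a single hybridisation per array and no spread between mice. It was 0.14 for members with 2 probes and 0.20 for members with 1. In bulk RNA, fewer cells of a type and less RNA per cell cannot be told apart. Of the fixed cell type markers, 6 of 6 for proximal tubule were measured with a median difference of -0.03, and 6 of 6 for podocytes with -0.14, with 1 higher in each. The other kidney lists and white blood cells also had medians below 0, from -0.05 for loop of Henle to -0.25 for collecting duct (1 of 3 higher). The measured markers of fat cells (2 of 4) and of brown fat, a tissue rich in mitochondria (3 of 4), had median differences of 2.58 and 2.90, with 2 of 2 and 3 of 3 higher on the TG+STZ array. The summed signal of the 4 brown fat markers was 11822 units for WT+STZ and 13539 for TG+STZ, that of the 4 fat cell markers 11562 and 16806, and that of the 6 proximal tubule markers 748811 and 799736. Ucp1, the defining brown fat gene, and Adipoq and Plin1 of fat cells were not well above background on both arrays. The part of these cells in the values below was not tested.

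Promoter windows are shown first for the 3 genes with the highest differences and for the lowest. RefSeq promoter windows (assembly GRCm38.p6), from 250 bases before to 50 after a start site, were at hand for 69 of the 78 genes, in 75 windows. Sequences run 5′ to 3′ on the strand of the gene. Capitals mark matches on either strand to the motif of the ETS factors, which include GABP (CCGGAAG), of YY1 (AAGATGGC) and of NRF1 (GCATGCGC), factors known to act at nuclear genes for mitochondrial proteins.
Mrpl1 (chr5:96209865-96210164, plus strand): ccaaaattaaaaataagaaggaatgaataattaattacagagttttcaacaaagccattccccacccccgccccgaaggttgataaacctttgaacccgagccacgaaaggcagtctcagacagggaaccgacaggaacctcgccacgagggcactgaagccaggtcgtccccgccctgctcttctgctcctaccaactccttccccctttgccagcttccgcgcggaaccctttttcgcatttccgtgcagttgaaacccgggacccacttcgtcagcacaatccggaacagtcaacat
Mrpl32 (chr13:14612988-14613287, minus strand): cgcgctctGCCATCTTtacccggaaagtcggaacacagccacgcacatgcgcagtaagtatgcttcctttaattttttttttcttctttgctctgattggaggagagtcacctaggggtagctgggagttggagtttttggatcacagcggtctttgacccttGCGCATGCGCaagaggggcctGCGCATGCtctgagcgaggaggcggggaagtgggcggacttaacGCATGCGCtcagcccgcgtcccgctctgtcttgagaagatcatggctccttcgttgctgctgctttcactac
Mrps18a (chr17:46110754-46111053, plus strand): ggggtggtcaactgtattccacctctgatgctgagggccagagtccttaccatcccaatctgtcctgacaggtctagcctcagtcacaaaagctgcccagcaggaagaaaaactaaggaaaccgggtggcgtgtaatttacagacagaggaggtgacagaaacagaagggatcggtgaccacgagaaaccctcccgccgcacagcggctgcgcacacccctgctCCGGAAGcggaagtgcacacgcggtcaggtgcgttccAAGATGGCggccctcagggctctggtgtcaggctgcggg
Mrps12 (chr7:28741772-28742071, minus strand): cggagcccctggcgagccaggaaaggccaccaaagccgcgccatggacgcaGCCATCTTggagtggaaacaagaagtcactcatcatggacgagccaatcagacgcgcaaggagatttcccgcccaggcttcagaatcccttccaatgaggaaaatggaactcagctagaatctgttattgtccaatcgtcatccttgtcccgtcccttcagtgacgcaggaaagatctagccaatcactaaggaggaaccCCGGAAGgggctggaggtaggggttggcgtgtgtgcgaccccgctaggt

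The window of Mrpl1 held none of these motifs. That of Mrpl32 held 4 matches to NRF1, of which a pair overlap on opposite strands of a palindrome, and 1 to YY1. The windows of Mrps18a and Mrps12 each held 1 ETS and 1 YY1 match. A match is a description of letters and not a bound site, and a window without one says nothing about the factor.

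Across the windows of the members, ETS matches were found in 26 of 75 (34.7%), against 11.6% of 21263 windows of all protein-coding genes. YY1 matches stood in 12 of 75 member windows against 3.05% of all, and NRF1 matches in 8 of 75 against 3.52%. At least 1 of the 3 motifs was in 50.7% of member windows and 16.7% of all. Among windows of genes measured on these arrays the shares were 14.2% for ETS, 3.66% for YY1, 4.23% for NRF1 and 20.3% for any of the 3. Cytosolic ribosomal protein genes had a similar ETS share of 36.1% but an NRF1 share of 4.17%, and genes for nuclear subunits of oxidative phosphorylation had NRF1 matches in 14.9%. The CCAAT box (CCAAT) was as frequent in members (40.0%) as in all windows (38.2%). The TATA box (TATAAA) was in 6.67% of member windows, against 12.6% of all and 9.15% of those of measured genes. The ERR motif (AAGGTCA) was in 5.33% against 4.08% of all and 3.69% of those of measured genes. The array difference was close in both classes: the 37 measured members with any of the 3 first motifs had a median of 0.07 (30 higher), and the 31 without had 0.05 (29 higher). By motif, 21 of 25 members with an ETS match were higher (median 0.07), 8 of 12 with YY1 (0.04), 8 of 8 with NRF1 (0.10), 23 of 27 with CCAAT (0.05), 5 of 5 with TATA (0.11) and 4 of 4 with ERR (0.04). Members without a match had medians of 0.05 to 0.06 for each of the 6 motifs. Of all 77 measured members 67 were higher, and of all measured genes 50.9%.

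**Figure D1:**
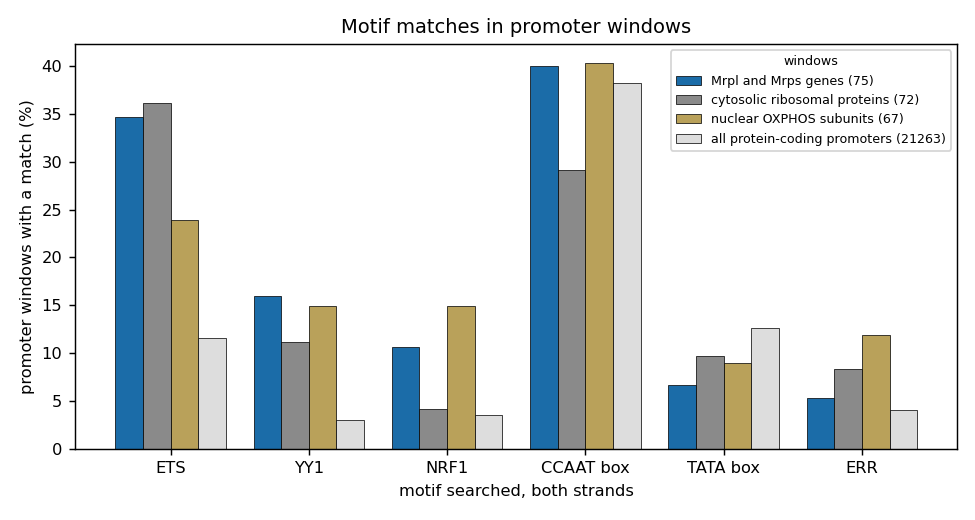
Share of promoter windows (%, vertical axis) with a match to each of 6 motifs on either strand, for Mrpl and Mrps genes, cytosolic ribosomal protein genes, nuclear oxidative phosphorylation genes and all protein-coding genes, with the number of windows in brackets. Members stand above all genes for ETS (34.7% against 11.6%), YY1 and NRF1, and close to them for the CCAAT box.

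The members as a whole were slightly brighter on the TG+STZ array after scaling. Of the 77 measured members 67 were higher and 10 lower, with a median difference of 0.06, while 50.9% of all 15975 measured genes were higher, with a median of 0.00. The split was 53 higher and 24 lower under both quantile normalization and a loess correction for signal, with medians of 0.02 and 0.03. Bright genes in general leaned the same way on these arrays. Of 1907 other genes in the interquartile range of the members' signal, 66.3% were higher, with a median of 0.04. Under quantile normalization and loess, 989 and 990 of these 1907 were higher, with medians of 0.003 and 0.004. The median difference over all genes went from -0.06 in the dimmest of 10 equal bins by signal to 0.04 in the brightest, and 36 of the 77 members lay in the brightest bin and 24 in the one next to it. The member median was 0.055 above that of all genes and 0.020 above that of the genes as bright. The gap to all genes was 0.10 under normexp background correction and 0.03 under both quantile normalization and loess.

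The differences were small and close together. Only 3 of 77 members (3.90%) were at least 1.2-fold apart, against 16.1% of all measured genes and 7.03% of the other genes of the same signal range. None was 1.5-fold apart, against 3.66%, or 2-fold, against 0.989%. The SD of the differences over members was 0.08, compared with 0.26 over all measured genes and 0.18 over the other genes of the same signal range. The interquartile range of the members ran from 0.03 to 0.10. Only 4 of 77 members (5.19%) differed by more than their own scanner error, against 23.7% of all measured genes and 13.6% of the other genes of the same signal range.

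**Figure D2:**
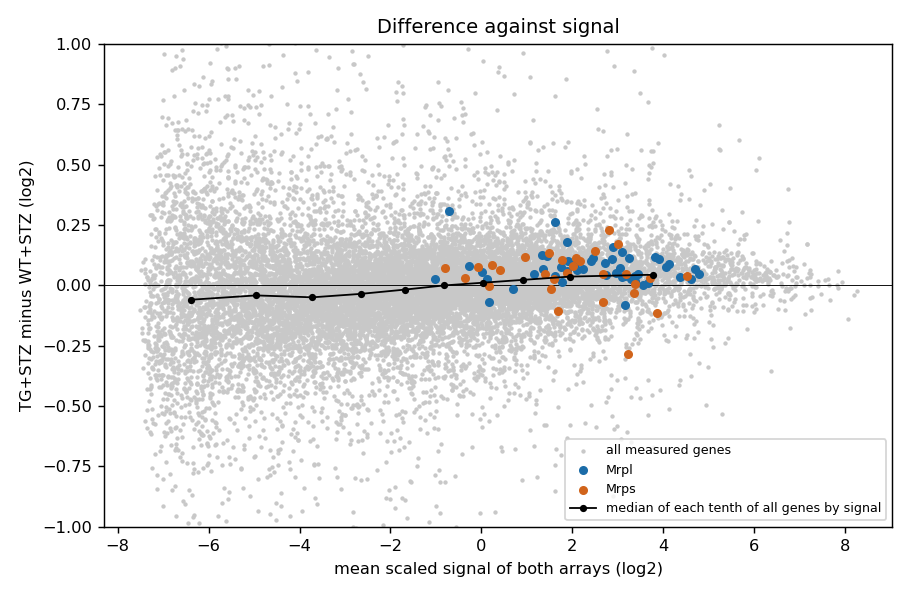
Difference between the arrays (TG+STZ minus WT+STZ, log2, vertical axis) against mean scaled signal (log2, horizontal axis) for all measured genes in grey, Mrpl genes in blue and Mrps genes in orange, with the median of all genes in each of 10 signal bins as a black line; 158 genes beyond 1 in either direction lie outside the axis. The members sit in the bright part of the array, mostly on or a little above the line, which runs from -0.06 to 0.04.

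Probes that were spotted repeatedly show how finely the arrays read such differences. These 3 probes belong to Mrpl34, Mrpl50 and Mrps35, which have 10 spots each on both arrays. Mrpl50, a protein found only in mitochondrial ribosomes, read 13176 to 14335 units over its spots on the WT+STZ array (median 13850) and 14991 to 15802 on the TG+STZ array (median 15278). Scaled, 8 of its 10 TG+STZ spots lay above the highest WT+STZ spot, and the difference was 0.08 with spot SDs of 0.04 and 0.02. Mrpl34, a core protein shared with bacteria, read 15905 to 17077 units in WT+STZ (median 16168) and 17196 to 18644 in TG+STZ (median 17342). Scaled, 9 of its 10 TG+STZ spots lay inside the WT+STZ range, for a difference of 0.04. Mrps35, of the small subunit, read 5188 to 6156 units in WT+STZ (median 5870) and 5905 to 6478 in TG+STZ (median 6316). All 10 of its TG+STZ spots lay inside the scaled WT+STZ range, and its difference was 0.03. Differences near the member median were therefore of the size of the scatter between single spots of 1 probe. Scaled and matched by position, every spot of Mrpl34 and of Mrpl50 read higher on the TG+STZ array, while spots of Mrps35 went both ways. For Mrpl34 this depends on the scaling. Its closest matched pair read 3.077 (WT+STZ) and 3.085 (TG+STZ), and scaling by detected probes shifts every difference by -0.02. The scatter of single spots is thus not the only limit for a difference between means of 10 spots, since the scaling also enters. Spots are technical repeats and carry no spread between mice.

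**Figure D3:**
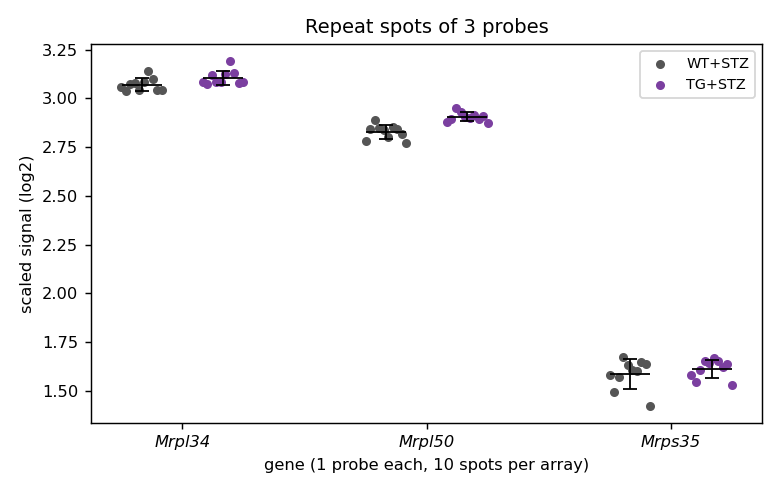
Scaled signal (log2, vertical axis) of each of 10 spots per array for the probes of Mrpl34, Mrpl50 and Mrps35, with the mean and SD of the spots as bars; spots are technical repeats within 1 array. The spots of Mrpl50 separate most (0.08 between means), and those of Mrps35 overlap fully.

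Among large subunit proteins with bacterial counterparts, Mrpl1 stood highest. Mrpl1, the protein of the flexible stalk beside the exit site of spent tRNA, gave 1056 units for WT+STZ against 1382 for TG+STZ, a difference of 0.31 ± 0.20 (1.24-fold). It was 1 of 2 members at least 1.2-fold higher, against 7.14% of all measured genes. The other was Mrpl32, which is cut to its mature form by the m-AAA protease of the inner membrane before it joins the ribosome. Mrpl32 had signals of 5406 (WT+STZ) and 6855 (TG+STZ), a difference of 0.26 ± 0.20, just past 1.2-fold, and it was under 1.2-fold at 0.24 with the 75th percentile of detected probes and at 0.23 under both quantile and loess normalization. Both genes rested on 1 probe. Mrpl18, of the central protuberance that contacts the small subunit, read 13582 and 16008 units, a difference of 0.16 ± 0.20, within the error.

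The proteins of the stalk that recruits elongation factors were nearly level. Mrpl12, the stalk protein that has also been found bound to mitochondrial RNA polymerase, gave 46853 units for WT+STZ against 50347 for TG+STZ, a difference of 0.02 ± 0.20. Mrpl10, which holds Mrpl12 at the stalk base, and its neighbour Mrpl11 each stood at 0.05. The 3 further bright core proteins were close to these. Mrpl20 read 52924 and 57826 units, for 0.05. Mrpl14, which lies at the interface of the subunits, read 39336 and 42573 units, for 0.04. Mrpl33 read 32568 and 36550 units, for 0.09. Proteins around the exit of the nascent chain gave like values, with Mrpl22 at 0.11, Mrpl23 at 0.04 and Mrpl24 at 0.01. Each of these 9 genes lay within its scanner error.

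Only 2 of the 29 measured large subunit proteins with bacterial counterparts were lower on the TG+STZ array. By comparison, 7838 of all 15975 measured genes were lower, and 643 of 1907 other genes in the members' signal range. Mrpl27, whose bacterial counterpart reaches into the peptidyl transferase centre, read 17679 and 17639 units on average over 2 probes, for -0.08 ± 0.14. Its probes gave -0.09 and -0.07. Mrpl15, a core protein, stood at -0.02 ± 0.14 with probes at -0.10 and 0.07, so its direction depends on the probe. The dim members Mrpl35 (950 and 1021 units) and Mrpl19 (1564 and 1746 units) stood at 0.03 and 0.08, both ± 0.20. Mrpl21, a core protein, was the member without a probe well above background. It had signals of 2.45 (WT+STZ) and 2.20 (TG+STZ), below the lowest signals counted as above background (10.6 and 9.70 units), and no fold is given.

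Large subunit proteins found only in mitochondria were higher on the TG+STZ array in 18 of 19 cases, with a median of 0.08. By comparison, 50.9% of all measured genes were higher, and 66.3% of the other genes in the members' signal range. Over both subunits, 27 of 29 such proteins were higher, and 22 of 29 under quantile normalization. With that normalization 49.0% of all measured genes were higher, and 989 of 1907 other genes in the members' signal range. Mrpl44, which has a fold like that of ribonuclease III, gave 6693 units for WT+STZ against 8008 for TG+STZ, a difference of 0.18 ± 0.20. Mrpl51 read 49259 and 54559 units, for 0.07 ± 0.20. Proteins of the central protuberance of this class, Mrpl38, Mrpl40, Mrpl46 and Mrpl48, stood at 0.12, 0.06, 0.13 and 0.09. Mrpl45, which ties the ribosome to the inner membrane, was at 0.06. Mrpl58, a peptidyl-tRNA hydrolase that frees stalled chains, read 22836 and 24171 units and was level at 0.00. Mrpl37 was the lower one, with 2224 and 2240 units, for -0.07 ± 0.20. All of these lay within the error of the scanner.

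The small subunit held the lowest members. Mrps12, a protein of the decoding centre where codon and tRNA are matched, read 19861 units in WT+STZ and 17213 on the other array. The difference of -0.29 ± 0.20 (1.22-fold lower on the TG+STZ array) was beyond the error and rested on 1 probe. It was the only member at least 1.2-fold lower, against 8.96% of all measured genes, and it stood at -0.26, just under 1.2-fold, with median centring. Mrps6, of the platform, read 29392 and 28707 units, for -0.11 ± 0.20. Mrps10, of the head, read 6425 and 6306 units, for -0.11 ± 0.20. Mrps7, also of the head, averaged -0.07 ± 0.14, but its probes disagreed more than those of any other member. One probe read 5993 and 5392 units, for -0.23, and the brighter one 26724 and 30127 units, for 0.09. Of the 16 small subunit proteins with bacterial counterparts, 10 were higher and 6 lower, with a median of 0.04, while 50.9% of all measured genes were higher.

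The other lower small subunit genes lay close to 0, with Mrps16 at -0.03, Mrps23 at -0.02 and Mrps11 at 0.00 (unrounded below 0). Mrps28, the counterpart of bacterial S1, had signals of 14716 (WT+STZ) and 17514 (TG+STZ), a difference of 0.17 ± 0.20. Mrps21 read 44239 and 47973 units, for 0.04. The members Mrps2, Mrps14 and Mrps27, among the lowest by scaled level, the last a pentatricopeptide repeat protein, stood at 0.03 ± 0.14, 0.07 ± 0.14 and 0.07 ± 0.20. Of the 10 small subunit proteins found only in mitochondria, 9 were higher, with a median of 0.07, against 50.9% of all measured genes. Mrps22, mutated in human respiratory chain disease, read 5138 and 5957 units, for 0.13 ± 0.20. Mrps23 was the lower one, with probes at -0.16 and 0.13.

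The 3 genes named for bacterial protein S18 have parted company in structure, since Mrps18c holds the S18 place, Mrps18b another place in the small subunit, and Mrps18a a place in the large subunit. All 3 were higher on the TG+STZ array. Mrps18a gave 12602 units for WT+STZ against 15596 for TG+STZ, a difference of 0.23 ± 0.20, the last of the 4 members beyond their error. It was within the error at 0.20 (unrounded below its error) under quantile normalization and at 0.19 under loess. Mrps18c read 10430 and 12164 units, for 0.14 ± 0.20. Mrps18b read 2123 and 2380 units with one probe and 18878 and 21716 with the other, for 0.09 and 0.12, or 0.10 ± 0.14 together. Mrps30, likewise placed in the large subunit, read 6973 and 7623 units, for 0.05 ± 0.20. Mrps36, which later work places in the 2-oxoglutarate dehydrogenase complex, read 20310 and 21582 units on average, for 0.00 ± 0.14.

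**Figure D4:**
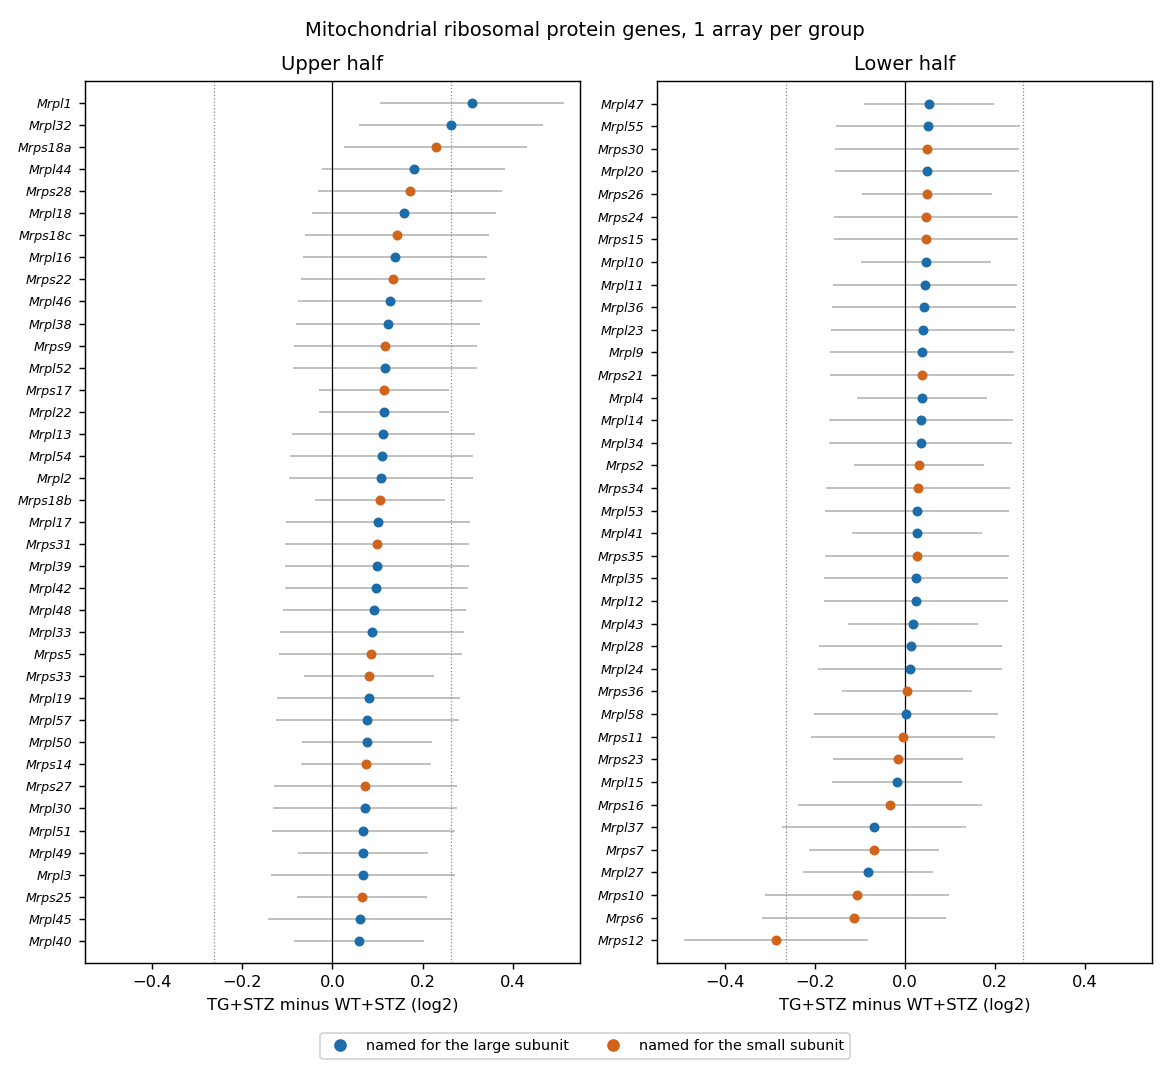
Difference of each of the 77 measured members (TG+STZ minus WT+STZ, log2, horizontal axis), ranked, with the scanner error as bars, genes named for the large subunit in blue and for the small subunit in orange, and dotted lines at 1.2-fold. The bars of all but 4 members cross 0, and Mrpl1, Mrpl32 and Mrps12 lie beyond the dotted lines.

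The subunits were compared by the medians of their differences, with no test. The shares to set beside the counts are 50.9% higher among all measured genes and 66.3% among the other genes in the members' signal range. For quantile normalization they are 49.0% of all measured genes and 989 of 1907 in the signal range. Mrpl genes had a median of 0.06, with 45 of 48 higher, and Mrps genes 0.05, with 22 of 29 higher; under quantile normalization 35 and 18 were higher. The gap between the medians was 0.016, and it was -0.005 under quantile normalization and when each gene was read from its brightest probe alone. The spread was wider among Mrps genes, with an SD of 0.099 against 0.068. Grouped by origin, 37 of 45 proteins with bacterial counterparts were higher with a median of 0.05, and 27 of 29 found only in mitochondria with 0.07. Under quantile normalization these medians were 0.02 and 0.04, with 29 and 22 higher.

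Signals spread widely over the members. They ran from 950 to 52924 units in WT+STZ and from 1021 to 57826 in TG+STZ, with medians of 10880 and 12164. Every measured member was brighter than the median gene, at signal percentiles from 52.7 to 97.6, with a median of 88.4. The median scaled level was 2.74 for Mrpl genes and 2.02 for Mrps genes, a gap of 0.72. Signals of different probes do not rank messenger levels, as the genes with 2 probes show. In these 21 genes the probes lay a median of 2.21 apart in scaled level, and in Mrpl41 they lay 6.09 apart, at 254 against 17120 units in WT+STZ. The gap between the subunits was 0.23 with the brightest probe of each gene.

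Probes of a gene agreed far better on the difference than on the level. The 2 probes of a member differed by a median of 0.04 in TG+STZ minus WT+STZ, with extremes of 0.00 in Mrpl50 and 0.33 in Mrps7, against a median of 0.08 over 3479 genes with 2 measured probes. No member's probes differed by over 0.5. In 6 of the 21 genes they lay on opposite sides of 0. Mrpl41 gave 0.02 and 0.04 with its dim and its bright probe.

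Many members share a promoter region with a gene on the other strand. The windows of 22 of 69 members (31.9%) overlapped that of another gene in the opposite orientation, against 7.72% of all protein-coding genes with a window and 9.91% of measured genes. Several partners also serve mitochondria. Mrps12 lies head to head with Sars2, which encodes the mitochondrial seryl-tRNA synthetase, and the genes stood at -0.29 ± 0.20 and 0.05 ± 0.20 (799 and 876 units for Sars2). Mrpl47 lies beside Ndufb5, a subunit of complex I, and the pair stood at 0.05 and 0.07. Mrpl43 lies beside Twnk, the helicase that unwinds mitochondrial DNA, at 0.02 and -0.05. One pair consists of members only: Mrpl46 read 4642 and 5356 units, for 0.13 ± 0.20, and Mrps11 read 2159 and 2274 units, for 0.00 ± 0.20. The window of Mrps11 (chr7:78782881-78783180, plus strand, GRCm38.p6) holds a YY1 match, in capitals, which lies outside the stretch shared with the window of Mrpl46.
Mrps11: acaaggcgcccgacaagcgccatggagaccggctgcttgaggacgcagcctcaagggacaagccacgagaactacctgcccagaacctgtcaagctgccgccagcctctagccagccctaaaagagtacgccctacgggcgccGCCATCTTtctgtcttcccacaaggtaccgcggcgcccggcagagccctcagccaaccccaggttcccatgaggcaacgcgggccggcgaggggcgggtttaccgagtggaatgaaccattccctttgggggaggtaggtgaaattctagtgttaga

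Mrpl32 lies beside Psma2, a proteasome subunit, at 0.26 and 0.10, and Mrpl18 beside Tcp1, a chaperonin subunit, at 0.16 and 0.12. Of 20 such pairs with both genes measured, 12 lay on the same side of 0. For scale, 87.0% of measured members and 50.9% of all measured genes were higher. The share among unrelated pairs was not computed, so the count says nothing about shared promoters. Ptcd2, an RNA-binding protein of mitochondria opposite Mrps27, went furthest the other way at -0.30 ± 0.20 (3538 and 3025 units), against 0.07 for Mrps27.

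Other genes of mitochondrial translation were listed by function. Of the 5 ribosomal proteins named outside the Mrp series, 4 were higher, with a median of 0.03, and of -0.01 under quantile normalization. For scale, 50.9% of all measured genes were higher. Ptcd3, a pentatricopeptide repeat protein, read 11769 and 13401 units, for 0.11 ± 0.20. Dap3, a GTP-binding protein, stood at 0.04 ± 0.14, and Aurkaip1 and Gadd45gip1 at 0.03 each. Chchd1 stood at 0.00 ± 0.20. None of the 5 lay beyond its error.

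Counts in the next lists also stand beside 50.9% of all measured genes higher. Assembly factors of the ribosome had a median of 0.03, with 16 of 25 higher. Mettl15 stood at 0.14 ± 0.20 and Mettl17 at -0.15 ± 0.20, both of the methyltransferase-like family. Mitochondrial aminoacyl-tRNA synthetases, which charge the tRNAs, had a median of 0.04, with 9 of 17 higher, and -0.01 under normexp. Rars2, for arginine, stood at 0.20 ± 0.20, and Nars2, for asparagine, at -0.22 ± 0.23 from a dim probe (53.0 and 47.9 units). Translation factors had a median of 0.05, with 11 of 17 higher, and 0.00 under quantile normalization. Mtfmt, which formylates the initiator tRNA, was lowest at -0.20 ± 0.20, and the highest gene, which carries only a clone name, stood at 0.32 ± 0.20 with probes at -0.06 and 0.70, beyond its error and above every member. Of the 15 genes for mitochondrial transcription and its regulators 12 were higher, with a median of 0.04. In this list 2 of 15 lay beyond their error, against 23.7% of all measured genes. Ppargc1b, a coactivator of mitochondrial genes, stood at 0.22 ± 0.20, and its relative Ppargc1a, a coactivator that Sirt1 is known to deacetylate, at -0.09 ± 0.14.

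Lists of other mitochondrial and ribosomal genes are given beside the members, with median WT+STZ signals of 78558 units for oxidative phosphorylation and 66268 for the cytosolic ribosome against 10880 for the members. Their median signal percentiles were 98.5 for oxidative phosphorylation, 97.7 for the cytosolic ribosome and 86.3 for mitochondrial import. For scale, 50.9% of all measured genes were higher, and 71.0% of those in the brightest of the 10 signal bins. With quantile normalization 49.0% of all measured genes were higher. Nuclear subunits of oxidative phosphorylation had a median of 0.07, with 71 of 74 higher (60 under quantile normalization) and an SD of 0.04, narrower than the 0.08 of the mitochondrial ribosome. They ran from Ndufb11 at -0.05 ± 0.14 to Cox6b1 at 0.16 ± 0.20. Import components of the outer and inner membrane had a median of 0.09, with 24 of 27 higher (20 under quantile normalization), from Tomm34 at -0.23 ± 0.20 to Timm9 at 0.24 ± 0.20. Cytosolic ribosomal proteins had a median of 0.04, with 64 of 80 higher, and 0.00 (37 of 80 higher) under quantile normalization. They ran from Rpl14 at -0.59 ± 0.14, with probes at -1.13 and -0.06, to Rpl3l, a muscle-type variant, at 0.92 ± 0.20. Beyond their scanner error lay 1 of 74 oxidative phosphorylation genes, 5 of 27 import genes and 8 of 80 cytosolic ribosomal genes. The share over all measured genes was 23.7%. Differences between the lists were not tested.

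**Figure D5:**
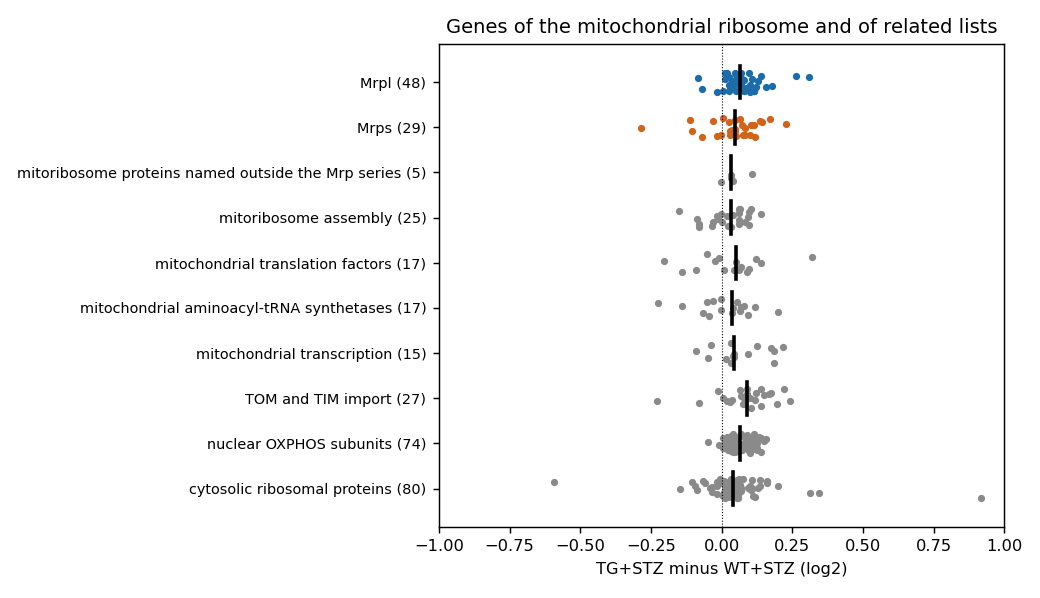
Difference of each gene (TG+STZ minus WT+STZ, log2, horizontal axis) in the Mrpl and Mrps genes and in 8 related lists, with the number of measured genes in brackets and the median of each list as a black bar. Every median lies between 0.03 and 0.09, though those of the cytosolic ribosome, the translation factors and the proteins named outside the Mrp series are at or below 0.00 under quantile normalization and that of the synthetases under normexp, and the 74 oxidative phosphorylation genes run from -0.05 to 0.16.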

How the data were processed

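Cy3-labelled RNA of 2 samples was hybridised to Agilent mouse arrays, 1 array per group. The deposited intensity is the processed signal of Agilent Feature Extraction, version 10.7.1.1 per the file headers and 10.3.1.1 per the submitters' processing notes, with background subtraction and detrending within each array. The deposited value table held the same intensity at all 44397 spots, so nothing had been normalized between arrays. Of 43020 gene spots per array, 75.0% and 76.3% were well above background and 0 were saturated. Only non-control spots entered, less the 114 and 109 that carried an outlier flag. Spots of a probe were averaged, and a probe counted as measured where it was well above background on both arrays, then probes of a gene were averaged. Of 39429 probes, 26412 were named through RefSeq accessions (GRCm38.p6). After scaling, 8 E1A spike-in probes differed by -0.05 to 0.05. The number of arrays limits the precision.

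The members and lists were chosen with earlier results of these data known. Named were the 6 highest and 6 lowest members by signal and by difference, all at least 1.2-fold apart, those not measured, the S18 genes, Mrps30, Mrps36 and Mrpl12, all 5 ribosomal proteins named outside the Mrp series and the extremes of the other lists (clone names excepted). Other members and all promoter partners were chosen after their values were seen. Genes of mitochondrial DNA were not analysed here. Alternatives were normexp (offset 50, on spot medians), median, spike-in, detected-probe, quantile and loess (span 0.3) scaling, the value table, no filter or a laxer one, the brightest probe, genes with probes on one side of 0, other thresholds, and other membership. The steps were tested on simulated data. Python 3.11.15, pandas 2.3.3, statsmodels 0.14.6, R 4.3.3 and limma 3.58.1 were used.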

Additional observations from a re-analysis of the deposited data

How the results depend on the processing

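The median difference of the members stayed above 0 under all 11 other ways of processing, from 0.02 with quantile normalization to 0.08 with median centring, and the count of higher members ran from 53 to 70. Over the settings, the share of all measured genes that were higher ran from 36.8% with normexp to 57.8% with median centring. The median of the other genes in the members' signal range also stayed above 0, from 0.003 to 0.06. The value table and the laxer filter gave the same median of 0.06 and the same 67 higher members, so they are no separate checks. Median, spike-in and detected-probe scaling shift every gene equally, so the gap of 0.055 to all genes could not change. The count at least 1.2-fold apart was 2 or 3 under the 11 settings, with Mrpl1 in each, and 0 at 1.5-fold and 0 at 2-fold. The gap of 0.72 in median scaled level between Mrpl and Mrps genes was 0.64 under normexp, 0.23 with the brightest probe of each gene, 0.79 without Mrps36 and 0.60 with subunits as placed in structures. The cause of the change with the brightest probe was not tested. Of 27 named members, 1 moved by more than its scanner error: Mrps7 stood at 0.09 with its brighter probe. That yardstick is wide, since only 4 of 77 differences exceed it. Small differences did change direction. Under quantile normalization Mrpl12, Mrpl14, Mrps21 and Mrps36 stood at -0.02, -0.02, -0.02 and -0.05, and Mrpl35 stood at -0.01 under normexp. No paired analysis was possible because each group has 1 array. With 1 array per group, no replicate could be left out.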
